A study of Xenopus laevis with 6 samples.

Results

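The genes of the RNA polymerases and of the general transcription machinery were examined in the tadpole brain after injection of leptin. They were chosen by name: every gene whose symbol in the array annotation begins with *gtf2*, *gtf3*, *polr1*, *polr2* or *polr3*, or with *taf* or *med* and a digit, together with *tbp*. The African clawed frog *Xenopus laevis* is an allotetraploid, so many genes are present as an L and an S copy, and each copy was counted as a gene. This gave 93 genes of the 11303 named on the array, 52 with an L name, 39 with an S name and 2 with neither. A gene was represented by the probe set with the highest mean over all arrays, except that both probe sets of *gtf2h2.S* were kept, which gave 94 of the 146 probe sets that the array carries for these genes.

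Tadpoles at Nieuwkoop-Faber (NF) stage 54 received an intracerebroventricular injection of 0.6% saline, or of recombinant *X. laevis* leptin (rxLeptin) at 20 ng per g of body weight, and RNA was taken 2 h later. Both groups were 3 pools of 3 brains, with 1 array for each pool, and the labels give the tissue as preoptic area, hypothalamus and pituitary while the methods name the preoptic area and hypothalamus. A pool averages its brains, so the spread between single animals was not measured. Arrays are called saline array 1 to 3 and rxLeptin array 1 to 3, and these numbers only name them.

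RNA polymerase I transcribes the large ribosomal RNAs, RNA polymerase II the messenger RNAs and RNA polymerase III the transfer RNAs, 5S ribosomal RNA and other small RNAs. None of them finds a promoter by itself. At a promoter of RNA polymerase II, TFIID, which is the TATA-binding protein TBP with its associated factors (TAFs), is joined by TFIIA, TFIIB, TFIIE, TFIIF and TFIIH, and the Mediator complex passes signals from activators to the polymerase through its tail, middle and head modules. These genes are used by nearly every cell, so in RNA from a whole tissue, fewer cells of a type and less RNA per cell cannot be told apart.

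All values are on the log2 scale of the deposited array values, and the level of a gene was not compared with that of another gene. A gene "rose" or "fell" where limma with array weights gave an adjusted p under 0.05 over the 16269 probe sets that passed a filter on the interquartile range. Of the 93 genes, 51 passed that filter, and 42 varied too little over the 6 arrays to be tested. Among the 51, 8 rose, 17 fell and 26 did not pass the test. Of all tested genes, 23.1% rose, 23.3% fell and 46.3% did either, so the 15.7% of members that rose was below and the 33.3% that fell above the share over all genes, and no test was made of either difference. The weighted log2 fold change had a median of -0.01 over the 93 genes, with quartiles of -0.21 and 0.13, against -0.02 over all genes. It was under 0.5 in size in 86 of them.

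The arrays did not count equally in these calls. Saline arrays 1 to 3 carried estimated weights of 0.30, 3.96 and 0.27 and rxLeptin arrays 1 to 3 of 1.20, 4.27 and 0.60, and their estimation did not converge. With no weights limma called 0 of the 16269 probe sets. An unadjusted p under 0.05 was then found for 15 of the 51 tested members and for 24.9% of all tested genes. With weights estimated gene by gene, 11 of the 25 called members were called again in the same direction, 5 that rose and 6 that fell, while 12.2% of all tested genes rose and 10.4% fell in that fit. Without saline array 1 no probe set was called, and none without saline array 2. Array values and the overlap of the groups, which use neither the weights nor the filter, are therefore given for the genes the results turn on.

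The saline arrays stood at different distances from the rxLeptin arrays. Over the 93 genes the median distance from the rxLeptin mean was 0.32 for saline array 1, 0.19 for saline array 2 and 0.12 for saline array 3, against 0.25, 0.15 and 0.12 over all genes. Saline array 1 was the farthest of the 3 in 67 of the 93 genes, a count that was not made over all genes. Saline array 3 was inside the rxLeptin range in 36, or 38.7%, beside 41.5% of all genes. The *actin* control probe sets, whose 3′ signal exceeds the middle signal where RNA is degraded, differed by 2.83, 1.61 and 0.77 on saline arrays 1 to 3 and by 0.60 to 0.67 on the rxLeptin arrays, and the *gapdh* controls (3′ minus 5′) by 2.71, 1.18 and 1.02 against 0.93 to 1.11. Probe sets for 11 copies of skeletal muscle genes, a tissue that a dissection can carry over, had a summed level of 10.82 to 10.93 on the saline arrays and 10.45 to 10.47 on the rxLeptin arrays, and 7 of them fell. Among these 7, *myh4.L* fell only in the weighted fit (-0.59), with an unweighted difference of 0.12 and overlapping groups. The summed level of 10 hypothalamic and neuronal copies was 15.27 to 15.33 against 15.19 to 15.32. The 8 pituitary copies summed to 15.42 to 15.63 against 14.79 to 15.52, and 2 of them fell. Of the other lists, 3 of 7 copies for endothelium, meninges and connective tissue rose (*col3a1.S*, *dcn.L* and *tek.S*), 2 of 9 for blood rose, 1 of 7 for leukocytes and microglia rose, 2 of 6 for epidermis fell and neither copy for myelin was called, and the summed levels of all 5 lists overlapped between the groups. The difference in the RNA controls and that in the muscle genes stand beside every result that follows. With a covariate for the *actin* control difference limma called no member and no other probe set. That difference was larger on every saline array than on every rxLeptin array, so the fit cannot tell it apart from the treatment. Calls lost and signs changed with the covariate, given below, therefore do not show a cause. The part of the muscle genes and of the other cell type lists was not tested.

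The groups did not overlap in 36 of the 93 genes, with the rxLeptin arrays all higher in 14 and all lower in 22. Over all genes they were all higher in 11.1%, all lower in 16.6% and apart in 27.7%, against 15.1%, 23.7% and 38.7% of the members. Of the called members, 5 of the 8 that rose and 13 of the 17 that fell had groups that did not overlap. The same share over all called genes was not counted, and the shares above cover called and uncalled genes alike. These counts are therefore no result about the members. For a single gene with 3 arrays against 3, a two-sided exact permutation test cannot give a p below 0.1, which is the value of every gene whose groups did not overlap.

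**Figure D1:**
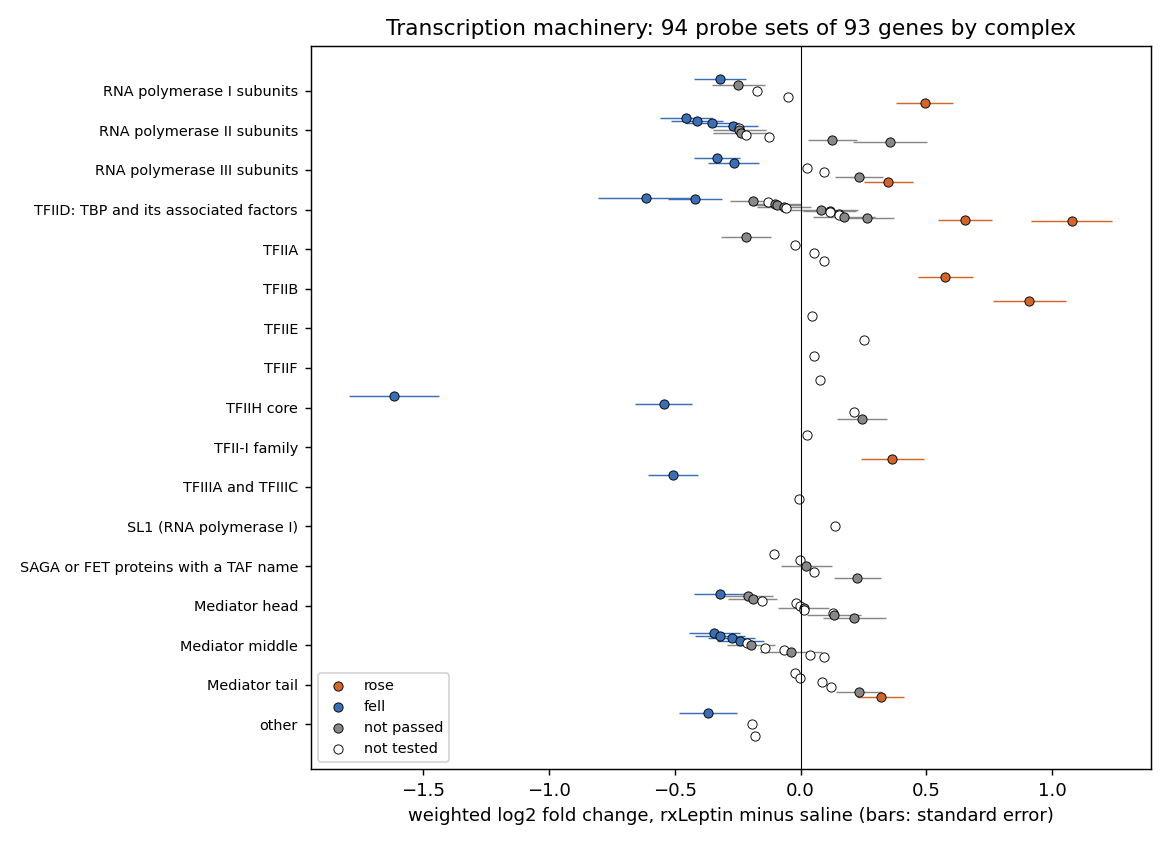
The horizontal axis is the weighted log2 fold change (rxLeptin minus saline) with its standard error, the vertical axis groups the 94 probe sets of 93 genes by complex, and colours mark probe sets that rose, fell, did not pass the test or were not tested. Both probe sets of *gtf2h2.S* lie to the left in TFIIH, both copies of TFIIB to the right, and most members lie within 0.5 of zero.

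TFIIH opens the DNA at the promoter and also serves nucleotide excision repair. The largest fall among the members was that of *gtf2h2.S*, which encodes the p44 subunit of its core, and this gene was chosen for description with that value known. The probe set Xl2.12759.1.A1_at read 6.86, 6.34 and 6.01 under saline (arrays 1 to 3, in that order here and below) and 5.36, 4.54 and 4.96 under rxLeptin. Every rxLeptin array was lower than every saline array. The weighted log2 fold change was -1.62 (standard error 0.18, limma adjusted p = 0.00011), and the means were 6.40 ± 0.43 (SD, n = 3) and 4.95 ± 0.41 (SD, n = 3). The other probe set, Xl2.12759.1.A1_s_at, is of a type that can bind several transcripts, and its values were 7.25, 7.02 and 6.91 against 6.70, 6.38 and 6.74. The groups did not overlap here either, and it fell by 0.54 (standard error 0.11, adjusted p = 0.00315). Both are named for the same source sequence and are not independent measurements. Both fell with gene-by-gene weights too. With no weights the unweighted differences were -1.45 and -0.45, with adjusted p of 0.121 and 0.153. Without rxLeptin array 2 the smaller fall was 0.30. Of the other core subunits, *gtf2h1.L* was higher on every rxLeptin array (9.80 to 9.89 against 9.65 to 9.67) but varied too little to be tested. A second probe set of *gtf2h1.L*, also not tested, was lower on every rxLeptin array (9.56 to 9.62 against 9.63 to 9.74). The groups overlapped in *gtf2h4.S* (8.78 to 9.03 against 8.57 to 8.91), and its log2 fold change of 0.24 did not pass (adjusted p = 0.0594). Without saline array 1 or 2 that value was 0.10 or 0.07, and without rxLeptin array 1 it was 0.35 and passed (adjusted p = 0.0391).

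TFIIB links TBP at the promoter to the polymerase, and both copies of its gene rose. The values of *gtf2b.L* were 9.24, 9.51 and 10.08 under saline and 10.16, 10.09 and 10.10 under rxLeptin, so the groups did not overlap, but saline array 3 lay only 0.0013 below the lowest rxLeptin array. It rose by 0.58 (standard error 0.11, adjusted p = 0.00177). The values of *gtf2b.S* were 4.59, 5.32 and 5.99 against 5.93, 6.29 and 6.32, with saline array 3 within the rxLeptin range. It rose by 0.91 (standard error 0.14, adjusted p = 0.000702). Both copies rose with gene-by-gene weights as well. In both, the saline arrays approached the rxLeptin arrays in the same order as the *actin* control difference fell. This order was not particular to TFIIB: all other members that rose, *tbp.S*, *taf3.S*, *polr1b.L*, *polr3d.L*, *gtf2i.S* and *med24.L*, had it too. Among the falls, both probe sets of *gtf2h2.S*, *taf3.L*, *polr1d.2.L*, *polr1e.L*, *polr2f.S*, *polr2g.L*, *polr2j.S*, *polr3e.L*, *med7.S*, *med11.S* and *med19* had this order. The falls in *gtf3c6.L*, *taf1.L*, *polr2k.S*, *polr3k.S*, *med7.L* and *med10.S* did not have it. A link to the control was not tested. With the control difference as a covariate the log2 fold changes of *gtf2b.L* and *gtf2b.S* were 0.19 and 0.21, neither of which passed. Without saline array 1 they were 0.30 and 0.57.

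TFIID had 17 genes, of which 2 rose, 2 fell, 8 did not pass and 5 were not tested. The called share of its tested genes was 33.3%, beside 46.3% of all tested genes. The rxLeptin arrays were all higher in 3 of the 17 (*taf3.S*, *taf7.L* and *taf8.S*) and all lower in 3 (*taf12.L*, *taf13.S* and *tbp.L*). Over all genes they were all higher in 11.1% and all lower in 16.6%. In *taf10.L*, which did not pass (-0.07), a second probe set rose by 0.69 (adjusted p = 0.00189), with overlapping groups. In *taf11.S*, which did not pass (0.26), a second probe set that was not tested had a log2 fold change of -0.22. The median log2 fold change of TFIID was 0.08 with the array weights, -0.03 without them and -0.05 with the *actin* covariate. With 1 array left out it ran from -0.12 to 0.14, below zero without rxLeptin array 1 or 2. The S copy of *tbp*, the TATA-binding protein itself, read 6.54, 6.66 and 8.02 under saline and 7.69, 7.80 and 8.15 under rxLeptin. Saline arrays 1 and 2 were more than 1 unit below the lowest rxLeptin array, and saline array 3 was within the rxLeptin range. It rose by 1.08 (standard error 0.16, adjusted p = 0.000483). The fold change was 0.47 without saline array 1 and 0.53 without saline array 2, neither of which passed, and the means of 7.07 ± 0.82 (SD, n = 3) and 7.88 ± 0.24 (SD, n = 3) lay within 1 saline SD of each other. The L copy was lower on every rxLeptin array, with 8.83, 8.65 and 8.91 against 8.46, 8.61 and 8.61. Its log2 fold change of -0.09 (adjusted p = 0.424) did not pass the test, was -0.23 with no weights and ran from -0.29 without saline array 2 to -0.05 without rxLeptin array 1.

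Among the TAFs, *taf3* encodes a subunit that reads methylated histone H3 at active promoters, and its copies were called in opposite directions. The values of *taf3.S* were 9.76, 10.15 and 10.62 under saline and 10.86, 10.80 and 10.84 under rxLeptin. The groups did not overlap, and the rxLeptin arrays lay within 0.1 of each other while the saline arrays spread over most of a unit. It rose by 0.65 (standard error 0.11, adjusted p = 0.000821). The values of *taf3.L* were 11.92, 11.69 and 11.35 against 11.35, 11.28 and 10.98, so that saline array 3 lay just within the rxLeptin range. It fell by 0.42 (standard error 0.11, adjusted p = 0.00856), but this probe set is of the type that can bind several transcripts, and a second probe set of this copy, which was lower on every rxLeptin array, differed by -0.17 in the weighted fit (adjusted p = 0.125). Both copies of *taf3* were called in the same directions with gene-by-gene weights, and with saline array 1 left out the S copy differed by 0.42 and the L copy by -0.26 in the weighted fit. *taf1.L*, the largest TFIID subunit, read 7.09, 7.54 and 7.25 against 7.48, 6.83 and 6.05. The groups overlapped, and rxLeptin array 3 alone was far below the rest. It fell by 0.61 (standard error 0.19, adjusted p = 0.0222), was not called with gene-by-gene weights (adjusted p = 0.115), and had a log2 fold change of -1.08 without rxLeptin array 1, of -0.37 without rxLeptin array 3 and of -0.30 without saline array 2. *taf13.S*, a histone-fold subunit, was lower on every rxLeptin array (11.41 to 11.50 against 11.58 to 11.64), a difference of 0.14 that was too even over the arrays to be tested.

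**Figure D2:**
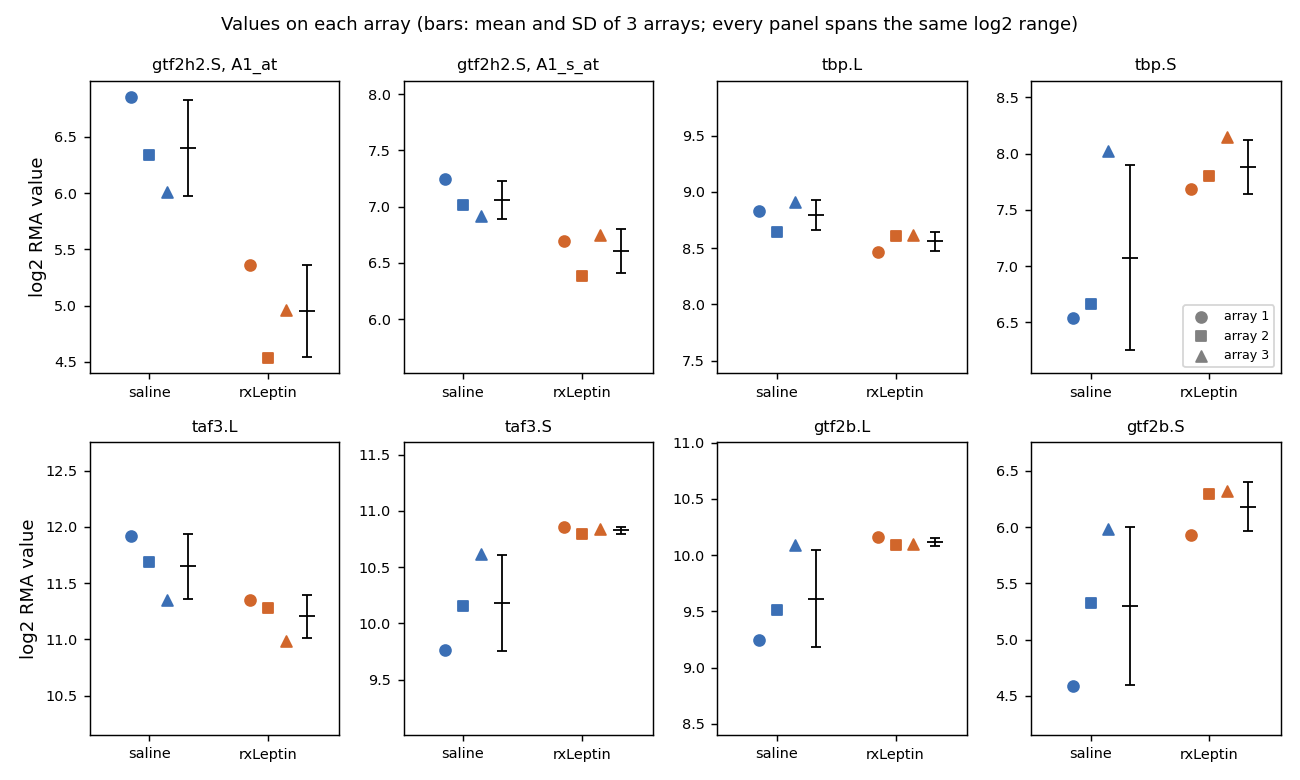
Each panel plots the log2 values of 1 probe set on the 3 saline arrays (blue) and the 3 rxLeptin arrays (orange), with the mean and SD of each group, and every panel spans the same log2 range. The groups are apart in both *gtf2h2.S* probe sets, *tbp.L*, *taf3.S* and *gtf2b.L*, while in *tbp.S*, *taf3.L* and *gtf2b.S* saline array 3 lies within the rxLeptin range.

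Of the genes of TFIIA, TFIIE and TFIIF only 1 was tested and none was called, beside 46.3% of all tested genes. TFIIA steadies TBP on the TATA box. It had 4 genes, of which 1 was tested. That gene, *gtf2a2.L*, its small subunit, was lower on every rxLeptin array (10.49 to 10.66 against 10.81 to 11.14) with a log2 fold change of -0.22 (adjusted p = 0.0889). The value was -0.37 with no weights, -0.42 and -0.35 without saline array 2 and 3, and it passed without rxLeptin array 3 (-0.24, adjusted p = 0.0467). TFIIE and TFIIF, which recruit TFIIH and accompany the polymerase, had 2 genes each, none of which passed the filter. *gtf2e2.L* was higher on every rxLeptin array, from 9.52 to 9.67 against 9.28 to 9.51, and *gtf2f1.L* overlapped, with 10.10 to 10.29 against 9.94 to 10.24. TFII-I, encoded by *gtf2i*, shares the name of the general factors but acts as a DNA-binding factor that responds to signals. *gtf2i.S* read 7.45, 8.07 and 8.60 against 8.54, 8.37 and 8.62. Saline arrays 1 and 2 were below the rxLeptin arrays and saline array 3 was within them. It rose by 0.37 (standard error 0.13, adjusted p = 0.0321), had log2 fold changes of 0.09 without saline array 1 and 0.67 without saline array 3, was not called with gene-by-gene weights, and turned to -0.18 with the *actin* covariate, which did not pass. Its relative *gtf2ird1.S* differed by 0.02 between the groups and was not tested.

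RNA polymerase II had 11 genes, of which 4 fell, none rose, 4 did not pass and 3 were not tested. The rxLeptin arrays were all lower than the saline arrays in 6 of the 11 and all higher in 1, where over all genes they were all lower in 16.6% and all higher in 11.1%, and 23.3% of all tested genes fell and 23.1% rose. One of the 6, *polr2i.S*, is uncertain for the reason given with its values. The median log2 fold change was -0.24 with the weights and -0.32 without them, and 9 of the 11 fold changes were below zero in both, against a median of -0.02 over all genes. It was -0.39 with each array centred on its median and -0.12, with 7 of 11 below zero, with a covariate for the *actin* control difference. Leaving out saline array 2 or 3 gave a median of -0.40 or -0.39. It was -0.19 without saline array 1, and also -0.19 without rxLeptin array 1. The median over the 11 genes of the signed difference, saline array minus rxLeptin mean, was 0.62 on saline array 1, 0.23 on saline array 2 and 0.12 on saline array 3. These are not the distances without sign given above for all members.

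The subunits that fell were small ones. *polr2k.S*, a zinc-binding subunit that all 3 polymerases share, read 10.48, 9.98 and 9.99 against 9.60, 9.54 and 9.64. The groups were apart, with saline array 1 the highest. It fell by 0.46 (standard error 0.10, adjusted p = 0.00468). *polr2j.S*, which pairs with POLR2C in the assembly of the enzyme, read 11.62, 11.16 and 11.15 against 10.68, 10.78 and 10.97 and fell by 0.41 (standard error 0.10, adjusted p = 0.00859). *polr2f.S*, another shared subunit, read 12.37, 11.87 and 11.78 against 11.46, 11.60 and 11.34 and fell by 0.35 (standard error 0.11, adjusted p = 0.0206). The groups were apart in both. All 5 probe sets of *polr2f.S* fell, by 0.29 to 0.36, and in all 5 the groups did not overlap, though several of them can bind the same transcripts. *polr2k.S*, *polr2j.S* and *polr2f.S* also fell with gene-by-gene weights. *polr2g.L*, a subunit of the stalk, fell by 0.27 (adjusted p = 0.0398). Its array values were 11.32, 11.10 and 11.03 against 10.72, 10.86 and 10.96, with the groups apart, and with gene-by-gene weights it had an adjusted p of 0.0924. A second probe set of *polr2g.L*, with overlapping groups and a log2 fold change of -0.04, was not tested. The log2 fold change of *polr2f.S* was -0.58 without saline array 3 and -0.28 with another array left out.

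The subunits that were not called did not all lie on the same side. *polr2h.L*, a shared subunit, and *polr2i.S*, which sits in the jaw of the enzyme, were lower on every rxLeptin array, with unweighted differences of -0.45 and -0.32. The values of *polr2h.L* were 9.55, 9.17 and 9.41 against 8.82, 9.01 and 8.96, and without rxLeptin array 3 it passed (adjusted p = 0.0348). A second probe set of *polr2h.L*, with a mean of 4.95 and overlapping groups, had a log2 fold change of 0.25 that did not pass. The probe set of *polr2i.S* read 11.29, 10.78 and 10.63 against 10.59, 10.55 and 10.62, and its log2 fold change turned from -0.25 to 0.10 with the *actin* covariate. *polr2b.S*, the second-largest subunit, which forms the catalytic site together with the largest, was higher on every rxLeptin array, at 11.93, 11.88 and 12.13 against 11.64, 11.80 and 11.72. Its weighted log2 fold change was 0.13 (adjusted p = 0.286), while the 2 other probe sets of the gene rose by 0.52 and 0.37. The groups did not overlap in any of the 3. *polr2e.S*, a shared subunit, read 10.38, 11.49 and 11.92 against 11.74, 11.79 and 11.97, so that its unweighted difference of 0.57 rested on saline array 1. Without that array it was 0.13. *polr2i.S* carries 15 probe sets in the annotation, more than any other member, and their weighted fold changes ran from -0.40 to 0.91. Of the 15, 2 rose, 1 fell and the rest were not called, and with so many separate probe sets under 1 name this gene is reported as uncertain.

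RNA polymerase I had 5 genes, and of the 3 tested 1 rose and 1 fell, beside 23.1% and 23.3% of all tested genes. *polr1b.L*, its second-largest subunit, read 7.10, 7.49 and 7.82 under saline and 7.99, 7.93 and 8.31 under rxLeptin. The groups did not overlap, and the saline arrays spread more widely. It rose by 0.49 (standard error 0.11, adjusted p = 0.00525), rose with gene-by-gene weights, and had a log2 fold change of 0.32 without saline array 1. *polr1e.L*, a subunit particular to this polymerase, read 10.65, 10.35 and 10.32 against 10.22, 9.99 and 10.07 and fell by 0.32 (standard error 0.10, adjusted p = 0.0239). Its groups were apart. It did not pass with gene-by-gene weights, and its log2 fold change was -0.21 without rxLeptin array 2. The other 3 genes overlapped between the groups and none was called. *polr1d.2.L*, whose family encodes a small subunit shared by polymerases I and III, read 11.55, 10.89 and 10.70 against 10.46, 10.55 and 10.76. The groups overlapped through saline array 3 and rxLeptin array 3. It fell by 0.37 (standard error 0.12, adjusted p = 0.0231), was not called with gene-by-gene weights, and had log2 fold changes of -0.24 to -0.67 with 1 array left out, the first without saline array 1 and the last without saline array 3. With the *actin* covariate its direction turned, to 0.07, which did not pass. *taf1b.L*, of the factor SL1 that brings polymerase I to the ribosomal RNA genes, differed by 0.12 between overlapping groups and was not tested. *polr2l.1.S*, of a subunit that all 3 polymerases share, and *med1l.L*, a relative of a Mediator subunit, also overlapped and were not tested.

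RNA polymerase III had 6 genes. Of 4 tested, 1 rose and 2 fell, beside 23.1% and 23.3% of all tested genes. *polr3d.L* and *polr3e.L* encode the partners of a pair of subunits that acts in initiation and termination, and they were called in opposite directions. *polr3d.L* read 9.58, 9.85 and 10.14 against 10.14, 10.20 and 10.27 and rose by 0.35 (standard error 0.10, adjusted p = 0.014). *polr3e.L* read 6.95, 6.94 and 6.90 against 6.89, 6.62 and 6.61 and fell by 0.27 (standard error 0.10, adjusted p = 0.0475). The groups did not overlap in either, but in each of them 1 rxLeptin array lay within 0.02 of a saline array. *polr3k.S*, which trims the nascent RNA at termination, read 8.37, 8.36 and 8.38 against 7.97, 8.02 and 8.17. Its saline arrays lay within 0.03 of each other, all above the rxLeptin arrays, and it fell by 0.33 (standard error 0.09, adjusted p = 0.0135). None of the 3 passed with gene-by-gene weights, where their adjusted p were 0.0566, 0.159 and 0.0517. The log2 fold change of *polr3d.L* was 0.20 without saline array 1. Of the factors that recruit this polymerase, *gtf3c6.L*, a subunit of TFIIIC, read 9.31, 9.07 and 9.12 against 8.62, 8.54 and 8.80. Every rxLeptin array was lower, by at least 0.27. It fell by 0.51 (standard error 0.10, adjusted p = 0.00211), fell with gene-by-gene weights, and had a log2 fold change of -0.37 to -0.63 with any 1 array left out. *gtf3a.L*, the factor of the 5S ribosomal RNA genes known from the *Xenopus* oocyte, overlapped between the groups, with 7.80 to 7.83 on the rxLeptin arrays and 7.79 to 8.06 on the saline arrays.

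Over the 3 polymerases together, 15 of the 22 subunits were tested. Of these 15, 2 rose and 7 fell, beside 23.1% and 23.3% of all tested genes. No overlap between the groups was found in 59.1%, with the rxLeptin arrays higher in 4 and lower in 9, beside 27.7%, 11.1% and 16.6% of all genes. Some of these groups were barely apart. Among the 4, the gap was 0.00011 in *polr3g.L*, which had a mean of 4.18 and was not tested, and 0.0052 in *polr3d.L*. Among the 9, it was 0.0074 in *polr2i.S*, the gene reported as uncertain. The 22 leave out *polr1d.2.L*, which fell, and *polr2l.1.S*, which stood in no complex of the lists. The median log2 fold change of the 22 was -0.23 with the weights and with none, -0.13 without saline array 1, -0.15 without rxLeptin array 1 and 0.004 with a covariate for the *actin* control difference.

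Mediator had 28 genes, of which 1 rose, 5 fell, 8 did not pass and 14 were not tested. The called share of its tested genes was 42.9%, beside 46.3% of all tested genes. Differences between its modules were not tested. The middle module, which joins the head to the tail, had 11 genes. Of 6 tested, 4 fell and none rose, beside 23.3% and 23.1% of all tested genes. The rxLeptin arrays were all lower in 4 of the 11 and all higher in none, beside 16.6% and 11.1% of all genes. The median log2 fold change was -0.20 with the weights, -0.27 without them, -0.31 with centred arrays and -0.05 with a covariate for the *actin* control difference. It was -0.11 without rxLeptin array 1, -0.32 without saline array 2 and -0.30 without saline array 3. *med7.S*, a subunit of the long arm of the module, read 9.95, 9.58 and 9.38 against 9.24, 9.23 and 9.38. Saline array 3 and rxLeptin array 3 met, and the others were apart. It fell by 0.34 (standard error 0.10, adjusted p = 0.0168). Its L copy read 10.09, 9.96 and 10.01 against 9.67, 9.75 and 9.70, with the groups apart, and fell by 0.24 (adjusted p = 0.049). *med19*, which touches the polymerase, read 11.56, 11.28 and 11.06 against 10.84, 11.00 and 10.96 and fell by 0.32 (adjusted p = 0.0211). *med10.S* read 10.62, 10.45 and 10.49 against 10.11, 10.20 and 10.27 and fell by 0.27 (adjusted p = 0.031). The groups were apart in both. None of these 4 passed with gene-by-gene weights, where the adjusted p ran from 0.0586 to 0.103. *med4.S* was lower on every rxLeptin array (9.17 to 9.33 against 9.45 to 9.71) without being called, and another of its probe sets, of a type that can bind several transcripts, rose by 0.88. *med9.L*, whose probe set is also of that type, was not tested and overlapped between the groups, with 10.99 to 11.34 under rxLeptin and 11.34 to 11.65 under saline. Another probe set of *med9.L* fell by 0.28 (adjusted p = 0.04999), with overlapping groups. *med26.L* was not tested and had a log2 fold change of -0.14. Another of its probe sets rose by 0.33 (adjusted p = 0.0208), and a further probe set differed by 0.23 and did not pass, both with overlapping groups. The difference in *med19* was -0.20 with saline array 1 left out. That in *med7.S* was -0.52 with saline array 3 left out and -0.23 with another array left out.

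The head module, which contacts the polymerase and the general factors, had 11 genes. Of 6 tested, 1 fell and none rose, beside 23.3% and 23.1% of all tested genes. *med11.S* read 10.31, 9.91 and 9.88 against 9.45, 9.65 and 9.70. The groups were apart, with saline array 1 the highest and rxLeptin array 1 the lowest. It fell by 0.32 (standard error 0.10, adjusted p = 0.0256) and had an adjusted p of 0.0588 with gene-by-gene weights. Its log2 fold change was -0.50 without saline array 3 and -0.25 with another array left out. Another probe set of *med11.S* fell by 0.39 (adjusted p = 0.00923), with the groups apart. *med30.S*, a subunit found in animals and not in budding yeast, was lower on every rxLeptin array (11.11 to 11.35 against 11.36 to 11.80) with a log2 fold change of -0.21 (adjusted p = 0.099). *med17.L* had a log2 fold change of -0.19 that did not pass (adjusted p = 0.116). Another of its probe sets was higher on every rxLeptin array and rose by 0.42 (adjusted p = 0.0125). The median of the head was 0.00 with the weights, -0.06 without them and -0.09 to 0.02 with 1 array left out.

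The tail module, which binds activators, had 6 genes. The rxLeptin arrays were all higher than the saline arrays in 3 of them and all lower in none, beside 11.1% and 16.6% of all genes. The median log2 fold change was 0.10, and it was 0.06 without saline array 1, 0.17 without saline array 3 and 0.05 with the *actin* covariate. *med24.L* read 9.08, 9.17 and 9.35 against 9.44, 9.50 and 9.55, with the groups apart, and rose by 0.32 (standard error 0.09, adjusted p = 0.0165). It did not pass with gene-by-gene weights (adjusted p = 0.0654). *med16.L* read 8.29, 8.35 and 8.55 against 8.62, 8.58 and 8.64, and its log2 fold change of 0.23 (adjusted p = 0.0543) did not pass, but passed without rxLeptin array 3 (adjusted p = 0.0373). *med23.L* read 8.69, 9.08 and 9.10 against 9.18, 9.16 and 9.27 and was not tested, and its log2 fold change turned from 0.12 to -0.09 with the *actin* covariate. In mammals the proteins of these 3 genes depend on each other within the tail. In *med15.L*, *med15.S* and *med25.S* the groups overlapped, with unweighted differences of 0.01 to 0.03.

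**Figure D3:**
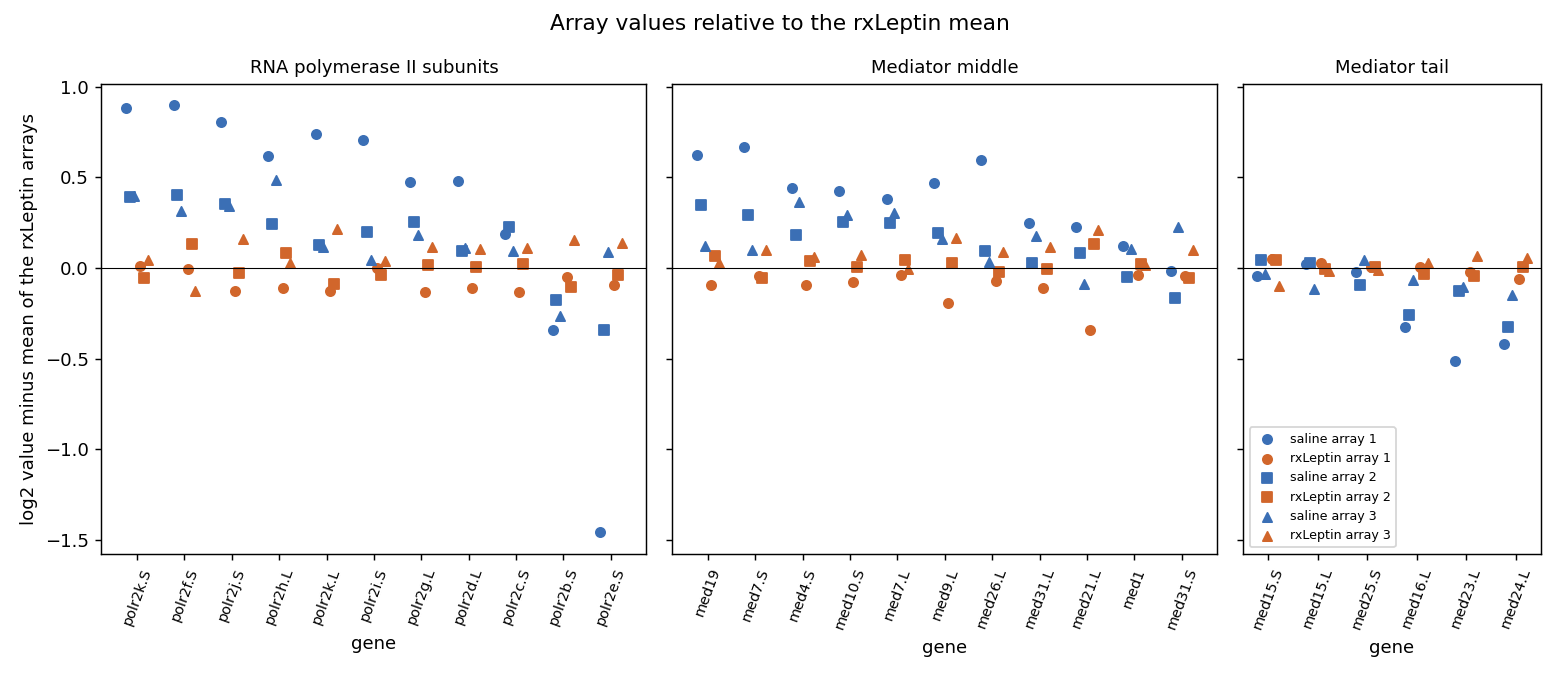
The vertical axis is the log2 value on each array minus the mean of the 3 rxLeptin arrays, for each gene of RNA polymerase II and of the middle and tail modules of Mediator, with saline arrays in blue and rxLeptin arrays in orange. Saline array 1 is the farthest from the rxLeptin arrays in most polymerase II genes. All saline arrays lie below all rxLeptin arrays in *polr2b.S*, *med16.L*, *med23.L* and *med24.L*, and in no other gene shown.

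Some genes with a TAF name serve other complexes. TAF5L and TAF6L belong to the SAGA family of histone acetyltransferase complexes and TAF15 is an RNA-binding protein of the FET family. Of these 5 genes 2 were tested and none was called, beside 46.3% of all tested genes. The groups overlapped in every one, where they were apart in 27.7% of all genes. In *taf15.S* the values were 11.46 to 11.75 on the saline arrays and 11.35 to 11.48 on the rxLeptin arrays.

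Both copies of 13 genes were on the array. The weighted log2 fold changes of the copies had the same sign in 8 pairs and the unweighted differences in 10. Both copies were called in 3 pairs: both rose for *gtf2b*, both fell for *med7*, and they were called in opposite directions for *taf3*. For *tbp*, S rose and L did not pass. For *polr2k*, S fell and L differed by -0.24 in the weighted fit, which did not pass (adjusted p = 0.102). Copies share sequence and can share probes, so a pair is not a pair of independent measurements. Among the 26 members with more than 1 probe set, the fold changes of all probe sets had the same sign in 14, and probe sets were called in opposite directions in 1, *polr2i.S*. The same counts over all pairs of copies on the array, and over all genes with more than 1 probe set, were not made. The counts of pairs and of probe sets are therefore no result about the members.

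**Figure D4:**
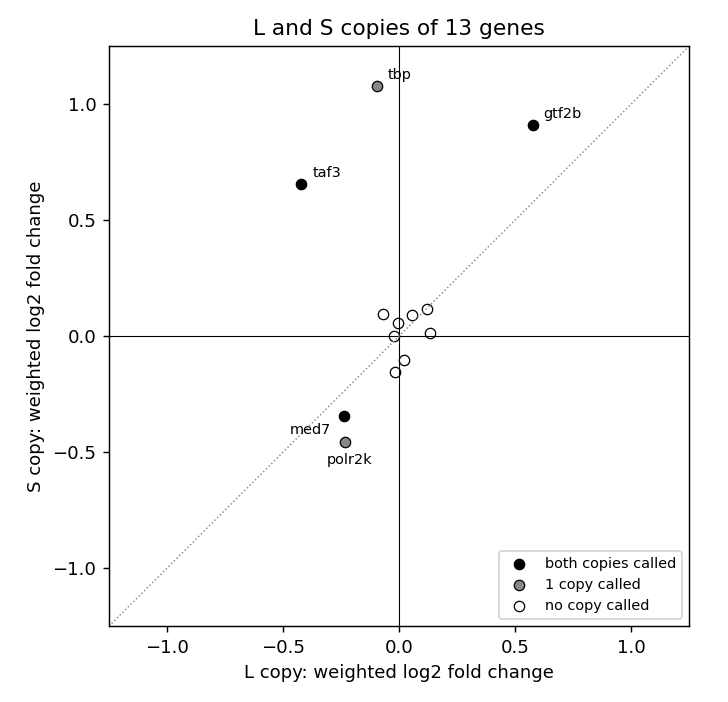
The weighted log2 fold change of the L copy is on the horizontal axis and that of the S copy on the vertical axis for 13 genes, with filled points where both copies (black) or 1 copy (grey) were called and a dotted line where they are equal. *gtf2b* and *med7* lie near the line, *taf3* and *tbp* lie in the quadrant where L was lower and S higher, and 8 genes with no call lie close to the origin.

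Genes of the same pathway that the naming rule does not take were read as a group of 88, among them factors of pausing and elongation, SAGA, TFIIIB and SNAPc, Integrator, phosphatases of the C-terminal domain of polymerase II and the helicases and kinase of TFIIH. Of 47 tested, 6 rose and 16 fell, which is 12.8% and 34.0% against the same 23.1% and 23.3% over all genes. The 6 largest changes among those called were falls. The next was a rise, of 0.42 in *iws1.S* (adjusted p = 0.0082). Its L copy fell by 0.37 (adjusted p = 0.0179), and the groups were apart in both copies. *supt16h.L*, a subunit of the histone chaperone FACT, read 7.84, 8.11 and 7.64 against 7.61, 7.38 and 7.07, with the groups just apart, and fell by 0.67 (adjusted p = 0.00125). Its probe set is of a type that can bind several transcripts, and the S copy, which was not tested, was higher on every rxLeptin array (11.24 to 11.51 against 10.78 to 11.23). *eloa.S*, elongin A, read 9.59, 9.36 and 8.98 against 8.70, 8.70 and 8.73 and fell by 0.65 (adjusted p = 0.000559), with the groups apart. *nelfa.L*, a subunit of the factor that holds the polymerase near the promoter, read 10.60, 10.09 and 9.91 against 9.63, 9.64 and 9.40 and fell by 0.50 (adjusted p = 0.00382), with the groups apart. The probe set of *nelfa.L* is also of a type that can bind several transcripts. *ccnt2.S*, a cyclin of the kinase that releases the polymerase, fell by 0.44 and *ctdp1.L*, a phosphatase of that domain, by 0.42, both with the groups apart. *atxn7.L*, a SAGA subunit, fell by 0.60 between overlapping groups. The helicases and kinase of TFIIH had 4 genes on the array, of which 2 were tested and none was called, beside 46.3% of all tested genes.

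**Figure D5:**
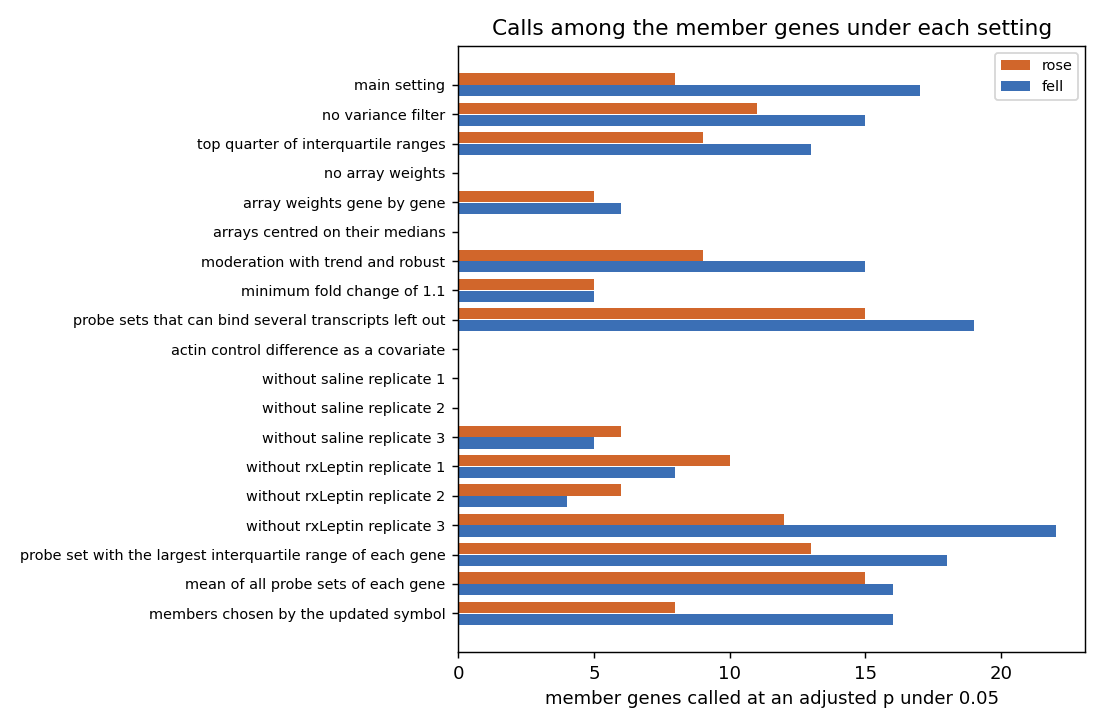
Bars give the number of member genes that rose (orange) or fell (blue) at an adjusted p under 0.05 under each setting. The counts are 8 and 17 in the main setting, 5 and 6 with array weights estimated gene by gene, and 0 with no array weights, with centred arrays, with the *actin* covariate and without saline array 1 or 2. Calls over all probe sets change between the settings too and are also 0 in those last ones.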

How the data were processed

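The authors made the deposited log2 values from 6 Affymetrix *X. laevis* Genome 2.0 arrays with Robust Multichip Average in affy, as their processing notes also name it. The arrays were labelled from the 3′ end of the RNA, and their number limits the precision. Of 32635 probe sets, 96 controls were removed, and the 16269 with an interquartile range above 0.173, the median, were tested. The study's methods name limma with empirical array weights. Here limma (3.58.1, R 4.3.3) was fitted with treatment as the only term and array weights by its default method, whose iterations did not converge, followed by eBayes and Benjamini-Hochberg adjustment over all tested probe sets. Fold changes are rxLeptin minus saline. The fit was also run on simulated data with known changes, in which all arrays had the same spread. The share of false calls was checked there only without the filter. The simulation therefore does not show how often the calls reported here are false.

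Of the 32539 probe sets, 15495 had 1 gene name in the array annotation, 279 had several and were not named, and 16765 had none. A table of gene names matched 145 of the 146 member probe sets by gene ID. The members, the lists by complex and the 88 related genes were chosen with earlier results of these data known. Genes were named by rule: both *gtf2h2* probe sets, each *tbp* copy, up to 3 called members with the largest changes and the member of highest mean in each complex, the 5 largest rises and falls without overlap, copies called in opposite directions, the 3 largest differences among untested members and up to 6 related genes. Others, such as *polr2e.S*, *polr2h.L* and *med16.L*, were added after their values were seen. Alternatives covered the filter, weights, scaling, moderation, probe sets, gene names, a covariate for the *actin* control difference and each array left out. Array medians lay between 7.31 and 7.35. No sequence is shown.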

Additional observations from a re-analysis of the deposited data

How the results depend on the processing

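The 8 rises and 17 falls became 5 and 6 with array weights estimated gene by gene, and 5 and 5 with a minimum fold change of 1.1. Of all 16269 tested probe sets, 7525 were called in the main setting, 3994 with gene-by-gene weights and 3553 with that minimum. No member and no other probe set was called with no array weights, with each array centred on its median, or with a covariate for the *actin* control difference. In these fits limma gave an unadjusted p under 0.05 in 15, 19 and 0 members, and in 4262, 3810 and 847 of all tested probe sets. The weights were estimated anew after centring, which put saline array 2 at 0.32 in place of 3.96. The rises and falls were 15 and 19 without probe sets that can bind several transcripts, where 8108 of all 14236 tested probe sets were called. They were 13 and 18 with the probe set of largest interquartile range, for which calls over all genes were not counted. With the mean of each gene's probe sets they were 15 and 16, beside 8322 calls among all 14173 tested. Counted by non-overlap they were 14 and 22, beside 11.1% and 16.6% of all genes. With 1 array left out, 0 to 12 members rose and 0 to 22 fell. The highest counts came without rxLeptin array 3, where 8714 of all 16269 tested probe sets were called. There were no calls without saline array 1 or 2, with 7 and 10 members and 2633 and 2677 of all tested probe sets at an unadjusted limma p under 0.05. There were 5 falls without saline array 3, 8 without rxLeptin array 1 and 4 without rxLeptin array 2. Calls over all tested probe sets there were 2853, 6445 and 4805. The median of -0.01 was -0.077 with centred arrays and -0.091 to -0.00071 with 1 array left out, where saline arrays 2 and 3 moved it most, to -0.091 and -0.085. The probe sets of *gtf2h2.S* kept their direction but lost their calls with no weights (-1.45 and -0.45), with centred arrays (-1.71 and -0.61) and with the *actin* covariate (-1.14 and -0.35), and ran from -1.85 to -1.19 and from -0.65 to -0.30 with 1 array left out. Over the other named members that were tested, and their settings, 187 values kept their side of the threshold, 151 lost the call, 2 gained one, and 2 changed sign, *gtf2i.S* (-0.18) and *med30.S* (0.0020), both with the *actin* covariate. The called *polr1d.2.L* turned to 0.07 with it. Of the named members that were not tested, *polr2i.S*, *med23.L* and *taf15.S* also changed sign with it, and *gtf2f1.L*, *gtf2ird1.S* and *med25.S* did with an array left out. The cause of these changes was not tested. No paired analysis was possible because the replicate numbers only name the arrays.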
